A study of Mus musculus with 13 samples.

Results

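Of 6 mouse mammary tumours, 2 carried transcripts of saliva proteins as a large part of their RNA, and their expression was set beside that of the other 4. The tumours were grouped by their measured level of Bpifa2, the parotid secretory protein: its raw CPM (a gene's count scaled to a fixed total per library, here the sum of all its counts) was above 10000 in tumours 70 and 995, called salivary tumours here, and not in tumours 95, 569, 655 and 914. Both groups are therefore subsets of 1 labelled group, and they make up 6 of 13 samples in the series. Because measured values chose the groups, differences between them are given as a description with no test. Known saliva proteins on a fixed list are left out of the comparison across genes. The list does not hold every salivary gene: Chia1 and Prb3-ps, described below, are not on it.

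All 6 tumours came from Cre-positive mice, in which mating at 12 weeks of age was used to trigger excision of Fbxw7, the substrate-recognition part of an SCF ubiquitin ligase. The 4 control libraries came from whole mammary glands of wild-type, Cre-negative mice that were mated in the same way, at 20 weeks (glands 1 to 3) and 40 weeks (gland 4). Tumours 70 and 995 were both collected at 25 weeks, and the others at 32 (tumour 95), 39 (tumour 569), 19 (tumour 655) and 53 weeks (tumour 914). Which promoter drives Cre was not stated in the labels, and the tumour and gland groups differ at the same time in Cre genotype, in being tumour or normal tissue, and in age. The RNA came from whole tissue, so fewer cells of a type and less RNA per cell cannot be told apart in any value below.

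Salivary glands secrete through acinar cells, which are filled with rough endoplasmic reticulum and granules, and through ducts that change the salt content of the fluid. The acinar state depends on transcription factors such as Bhlha15 (Mist1) and Xbp1, and fluid flow on the transporter Slc12a2, the chloride channel Ano1 and the water channel Aqp5. The mammary gland is a related secretory gland of the skin and shares several of these genes, and salivary glands lie close to the most anterior mammary glands of a mouse. FBXW7 targets Myc, cyclin E, Jun and Notch proteins for degradation, so its loss is mainly studied through cell division.

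Among the most abundant transcripts of the salivary tumours were those of Bpifa2, of Amy1 (salivary amylase) and of Chia1 (acidic chitinase, an enzyme secreted in mouse stomach, lung and salivary gland). The 100 bases before their transcription starts are shown because these genes were high together in the same libraries. The sequences are from RefSeq on GRCm38.p6, 5′ to 3′ on the gene's strand, with the letters TATAA in capitals where they occur on that strand.
Bpifa2, chr2:154008176-154008275, plus strand: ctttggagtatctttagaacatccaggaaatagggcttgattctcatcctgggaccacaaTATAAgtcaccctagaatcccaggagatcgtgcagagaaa
Amy1, first start, chr3:113577751-113577850, minus strand: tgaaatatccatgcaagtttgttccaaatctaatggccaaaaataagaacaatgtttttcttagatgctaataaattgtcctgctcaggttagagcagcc
Amy1, second start, chr3:113574763-113574862, minus strand: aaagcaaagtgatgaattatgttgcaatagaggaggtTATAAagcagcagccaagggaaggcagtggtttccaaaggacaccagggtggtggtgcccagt
Chia1, chr3:106113282-106113381, plus strand: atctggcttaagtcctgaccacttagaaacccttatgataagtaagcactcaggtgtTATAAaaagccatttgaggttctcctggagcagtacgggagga

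The motif TATAA, searched on both strands (TTATA is the same motif on the opposite strand), began 40 bases before the start in Bpifa2, 63 bases before the second start of Amy1 and 43 bases before the start of Chia1. In the second Amy1 window and in the Chia1 window the opposite strand held 1 match as well, overlapping the first. The window before the first Amy1 start held no match on either strand. Across 32851 promoters of the same table, 10.2% held the motif on either strand in the same 100 bases. The deposited counts are per gene, so they do not say which Amy1 start was used.

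Bpifa2 stood at 348667 raw CPM in tumour 70 and 118015 in tumour 995, against 22.4, 1.47, 10.4 and 3.98 in tumours 95, 569, 655 and 914. Amy1 stood at 77944 and 44625 raw CPM in tumours 70 and 995, and between 0.747 and 5.65 in the other tumours. The threshold of 10000 lies in a gap of several orders of magnitude, so no tumour was near it. Amy1 was higher in every gland (318 to 460 raw CPM in glands 1 to 3 and 38.7 in gland 4) than in any of the other 4 tumours. Bpifa2 was at 0 to 0.405 raw CPM in the glands.

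**Figure D1:**
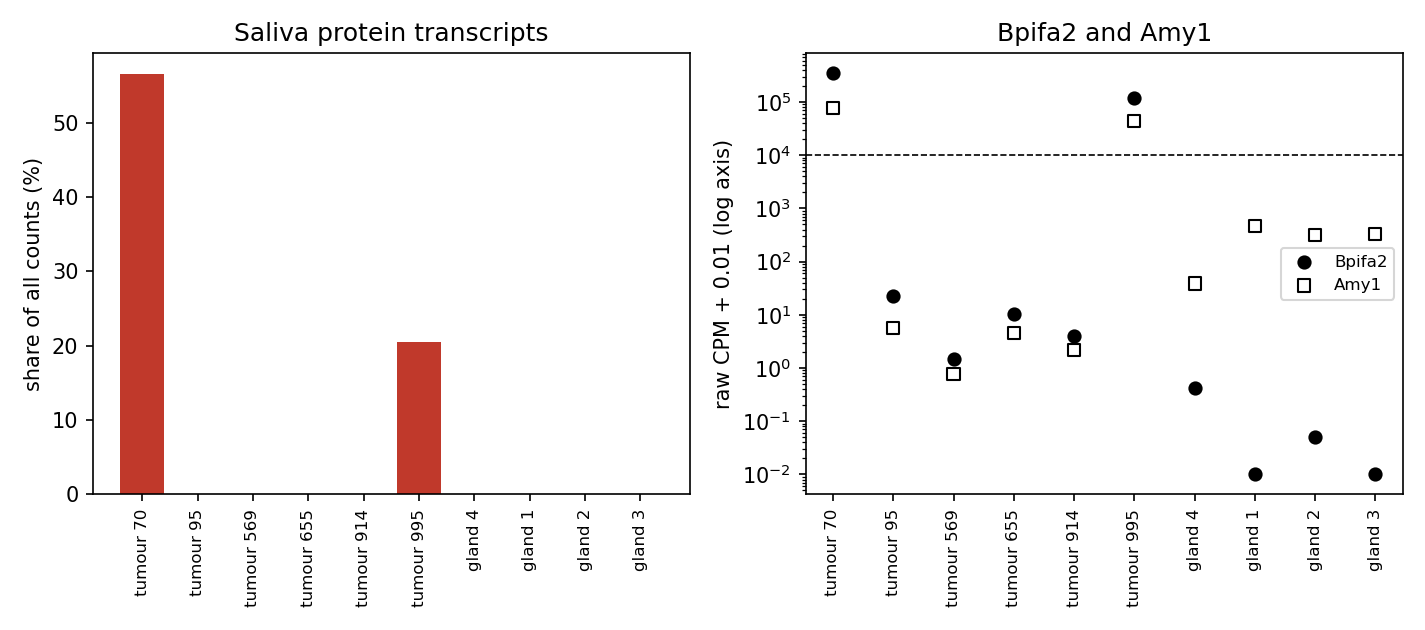
Left, share of all counts (%) taken by saliva protein genes in each library, as bars. Right, raw CPM plus 0.01 of Bpifa2 (filled circles) and Amy1 (open squares) on a log axis, with the threshold of 10000 dashed. Tumours 70 and 995 stand at 56.5% and 20.5%, and every other library is below 0.05%.

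Saliva protein genes together took 56.5% of all counts in tumour 70 and 20.5% in tumour 995, against 0.00113% to 0.0189% in the other tumours and 0.00522% to 0.0470% in the glands. Behind Bpifa2 and Amy1 came Smr3a (a prohormone-like secreted protein) at 73356 and 19895 raw CPM, Dnase1 (the secreted deoxyribonuclease) at 24860 and 5314, Cst10 (a cystatin) at 13057 and 3171, and Pip (prolactin-induced protein) at 11688 and 6835, in tumours 70 and 995. The mixture was not the same in both. Of 15 saliva genes with at least 100 raw CPM in both, 12 were higher in tumour 70, and the ratio of tumour 70 to tumour 995 ran from 0.430 (Dcpp3) to 6.56 (Prb1) with a median of 2.95. The 3 that were higher in tumour 995 were Dcpp1, Dcpp3 (demilune cell and parotid proteins) and Scgb2b27 (a secretoglobin). Prb1, a proline-rich protein, stood at 975 raw CPM in tumour 70 and 149 in tumour 995, while Dcpp1 stood at 664 and 1168.

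The other 4 tumours carried these transcripts at a low level. Relative to tumour 70 (raw CPM over that in tumour 70, in ppm), the 6 saliva genes that were most abundant in tumour 70 lay at 50.7 to 82.4 in tumour 95, 23.6 to 69.7 in tumour 655, 8.02 to 27.5 in tumour 914 and 4.22 to 12.4 in tumour 569. As a ratio of highest to lowest, the range of these 6 genes within 1 tumour was narrowest in tumour 95. Whether such counts were made in the other tumours or carried over between libraries was not tested. Lpo (lactoperoxidase, also a milk enzyme) at 167 raw CPM in tumour 914 and Car6 (carbonic anhydrase of saliva) at 52.4 in tumour 655 lay far above those ranges relative to tumour 70, and so did Klk1 (a kallikrein protease of saliva) at 26.6 in tumour 95. These 3 were singled out after their values were seen.

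Total counts were between 34865913 and 48325044 in the tumours and between 13723065 and 48353114 in the glands, and saliva genes left 15155938 counts for all other genes in tumour 70 and 28792682 in tumour 995. Levels below are scaled CPM, computed after removing 55 saliva gene symbols and scaling by TMM (the trimmed mean of M values, which discounts extreme genes), with factors of 1.02 and 1.11 in tumours 70 and 995, 0.794 to 1.24 in the other tumours and 0.531 in gland 4. Mitochondrial genes took 8.08% and 8.07% of counts in tumours 70 and 995, 8.59% to 12.4% in the others, and 37.5% in gland 4. No pair of libraries were copies of each other.

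Of 23187 genes tested, 2330 (10%) were above every other tumour in both salivary tumours with a fitted fold of at least 2, and 1747 (7.53%) were below every other tumour by as much. These are the genes called higher and lower in what follows. The groups were chosen on this contrast, so the counts describe 6 libraries and carry no p. The median log2 difference over all tested genes was -0.06. At the edge of the 2-fold limit, Cpd and Ifi203 lay just inside (Cpd at 2.001-fold) and Sel1l (1.996-fold) and Unc13b (1.984-fold) just outside.

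The 2 salivary tumours did not contribute alike. Among the 2330 genes called higher, 1506 were higher in tumour 70 than in tumour 995, 870 of them by at least 2-fold. The other 824 were higher in tumour 995, 334 of them by at least 2-fold. Among the 1747 called lower, tumour 70 was the lower of the 2 in 1424. Over all 23187 tested genes, tumour 70 was the higher in 10043 and the lower in 12859. Of the genes called higher, 713 were also above every gland in both salivary tumours and 420 were below every gland. Thus some of them were high against the other tumours while staying far under their level in a normal gland. In 182 of the genes called higher the other tumours held at most 3 counts in all, as they did in 351 of all tested genes. Genes that passed the filter on low counts only through the salivary tumours are among the 2330, and their number was not counted.

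**Figure D2:**
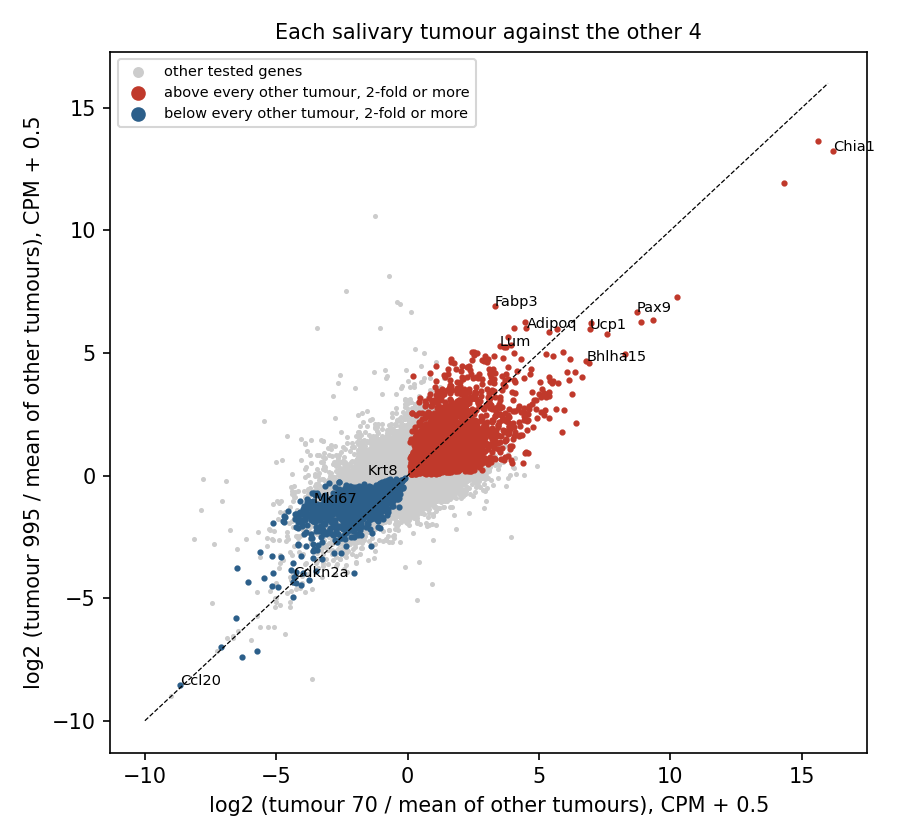
Each point is 1 tested gene, placed by log2 of tumour 70 (x axis) and of tumour 995 (y axis) over the mean of the other 4 tumours, in scaled CPM plus 0.5. Genes called higher are red, genes called lower blue, all others grey, and the dashed line marks equal values; 1506 of 2330 red points lie on the side of tumour 70, and the 3 points at the far end are Chia1 and 2 unnamed gene models.

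Once the listed saliva proteins were removed, Chia1 was the most abundant transcript left in tumour 70. In tumour 995 it was second to mt-Co1, a mitochondrial transcript with 2.34% of the remaining counts there. Chia1 stood at 137779 scaled CPM in tumour 70 (14.1% of its remaining counts) and 17963 in tumour 995 (1.997%), against 3.33, 0.305, 1.14 and 0.595 in tumours 95, 569, 655 and 914 and 0 to 0.347 in the glands. Both salivary tumours lay far above every other library, by more than their own difference. The fitted log2 difference from the other tumours was 15.81.

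Further abundant transcripts had the same distribution. The gene model 2310057J18Rik took 6.91% and 1.91% of the remaining counts in tumours 70 and 995, and BC037156 took 1.61% and 0.331%. In the other tumours 2310057J18Rik lay between 0.234 and 1.44 scaled CPM and BC037156 between 0.166 and 0.368. Wfdc12, a small antibacterial protein of the whey acidic protein family, stood at 22241 and 7512 scaled CPM in tumours 70 and 995, but also at 2031 in tumour 95, so that it was far less restricted. Removing every transcript above 1% of any library took Chia1 out of the comparison by construction and left 2314 of the 2330 genes called higher.

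Of regulators, Pax9, a transcription factor of oral, dental and pharyngeal epithelium, stood at 280 and 67.0 scaled CPM in tumours 70 and 995 and at 0.167, 0.0831, 0.0968 and 0.319 in tumours 95, 569, 655 and 914. The glands lay between 0.0329 and 0.126. No other tumour and no gland came near tumour 995, the lower of the pair. The fitted log2 difference from the other tumours was 9.98. Pax9 passed the filter on low counts only through the salivary tumours, so no test against the glands is given for it.

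Cldn22, a tight junction claudin, stood at 324 and 40.0 scaled CPM in tumours 70 and 995 and had no count in any other tumour, which makes it at least 11804-fold higher against a floor of 3 counts over those 4 libraries. Prb3-ps, whose symbol marks a pseudogene of the salivary proline-rich protein family, stood at 153 and 15.1 scaled CPM with no count in the other tumours or the glands, at least 5448-fold higher by the same floor. Its reads may be shared with near-identical family members such as Prb1, so its level is uncertain. Dusp26 (a protein phosphatase) stood at 35.3 and 9.47 scaled CPM, Slc2a5 (the fructose transporter) at 53.6 and 8.34, and Ces1e (a carboxylesterase with close paralogues) at 41.6 and 5.03, and in the other tumours none of the 3 exceeded 0.191. The glands held 3.33 to 12.1 scaled CPM of Slc2a5, so tumour 995 lay within their range. Mup5, of the near-identical major urinary proteins, stood at 198 and 116 scaled CPM against 0 to 3.90. Bglap2, an osteocalcin gene with a near-identical neighbour, stood at 53.7 and 2.31 against 0 to 0.489. All of these except Mup5 were higher in tumour 70 than in tumour 995 by 3.73-fold (Dusp26) or more, as were Chia1 and Pax9. Cldn22, Prb3-ps, Ces1e and Bglap2 passed the filter on low counts only through the salivary tumours. Their place among the highest folds therefore rests in part on that filter.

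**Figure D3:**
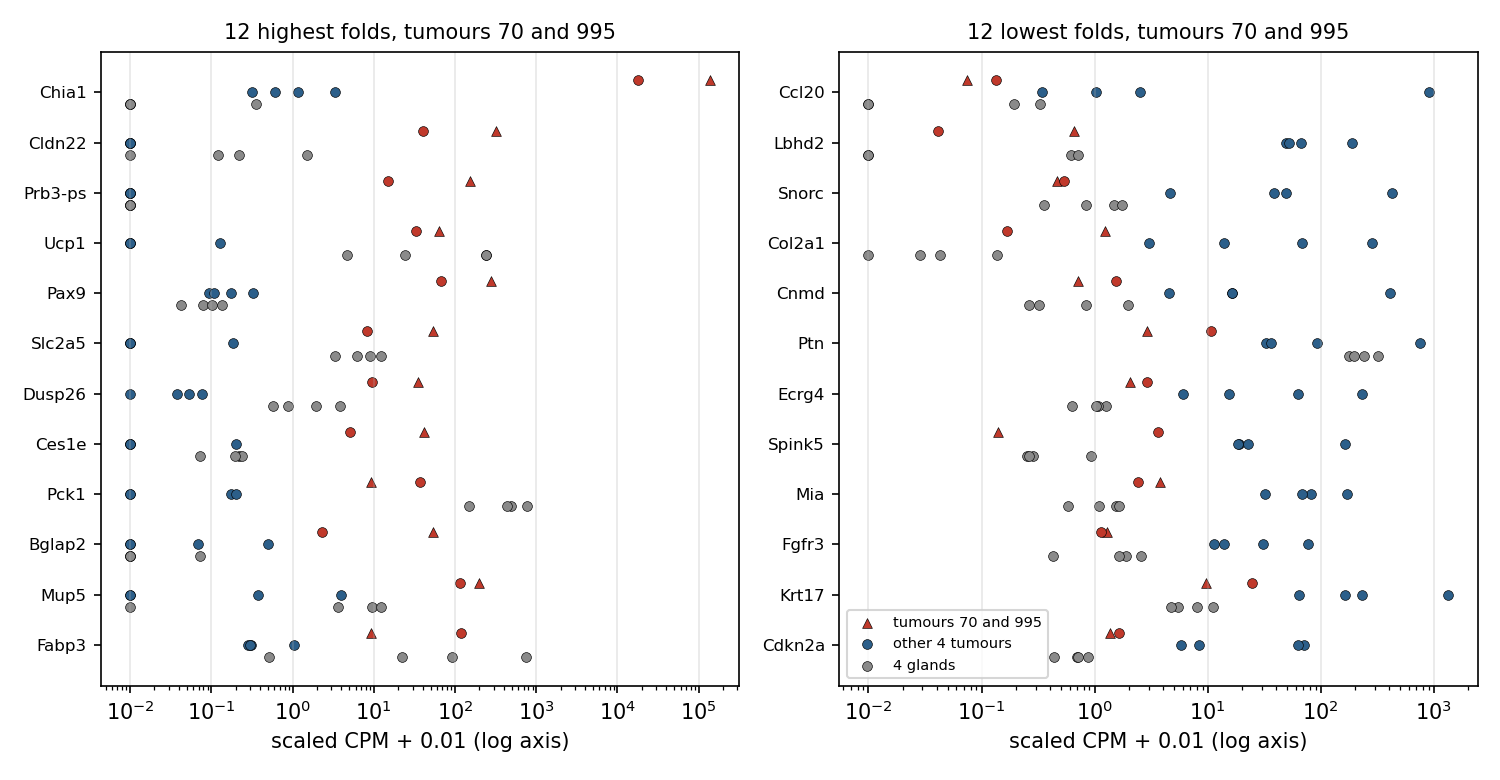
Scaled CPM plus 0.01 on a log axis for the 12 named genes with the highest (left) and lowest (right) folds. Red marks tumours 70 (triangle) and 995 (circle), blue the other 4 tumours and grey the 4 glands. On the left Ucp1, Pck1 and Fabp3 reach gland levels similar to or above those of the salivary tumours, and Slc2a5 reaches that of tumour 995. Chia1, Cldn22 and Pax9 do not reach such levels in the glands.

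Genes of the acinar secretory machinery were unevenly high. Of 16 members, 7 were called higher and 1 lower, with a median log2 difference of 1.00, where 10% of all genes were called higher. Bhlha15, the transcription factor of exocrine secretory cells, stood at 242 and 54.9 scaled CPM in tumours 70 and 995 against 3.25, 1.30, 1.63 and 0.531 in tumours 95, 569, 655 and 914. Its groups did not overlap, with a fitted fold of 88.2. Against the glands (0.624 to 1.24 scaled CPM) it was higher in the salivary tumours by 7.29 ± 0.77 (SE) on the log2 scale (adjusted p = 0.0046), and in the other tumours the difference was 0.82 ± 0.59 (adjusted p = 0.34).

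Creb3l1, a membrane-bound factor of the secretory pathway, stood at 136 and 35.3 scaled CPM against 3.72, 0.277, 1.51 and 2.89, a fitted fold of 40.5. Spdef, a factor of mucous cells, stood at 14.8 and 3.44 against 0.249 to 1.22. The vesicle proteins Rab26 (7.48 and 1.16 against 0.127 to 0.639) and Rab3d (161 and 85.6 against 23.8 to 60.8) were also called higher. So was Slc12a2, which loads chloride into acinar cells, at 610 and 335 scaled CPM against 122, 169, 263 and 53.9. The glands held 311 to 400 of it, and its log2 difference from them was 0.40 ± 0.54 (SE, adjusted p = 0.69).

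Other parts of fluid secretion overlapped between the groups. Aqp5 stood at 281 and 96.0 scaled CPM in tumours 70 and 995 and at 80.1, 177, 321 and 10.4 in the other tumours, with tumour 655 the highest of all 6. Ano1 stood at 139 and 235 against 52.4 to 442, and Sox10, a factor of both salivary and mammary progenitors, at 38.5 and 66.1 against 6.14 to 64.1. The muscarinic receptor Chrm3, which triggers secretion, stood at 30.1 and 6.59 against 0.106 to 33.0. Against the glands 1 of the 16 genes rose in the salivary tumours (background 1.33%). In the other tumours 6 rose and 1 fell (background 8.69% and 11.4%). When 1 library was left out, the count of 6 ranged from 0 to 8. It was 0 without gland 2 or gland 3 and 2 without gland 1. The count of 1 that rose in the salivary tumours was at most 4 in those fits. At an unadjusted edgeR p under 0.05, 10 of 16 rose in the salivary tumours, and 7 rose and 2 fell in the others. DESeq2 called 8 higher in the salivary tumours, and 7 higher and 1 lower in the others. Over all genes DESeq2 called 2257 and 6644, in either direction. Median log2 differences of the list from the glands were 2.18 in the salivary tumours and 1.01 in the others. Chrm1, another muscarinic receptor, was the member called lower (2.19 and 2.09 against 2.42 to 16.0), by a margin that several other scalings removed.

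Genes of the salivary ducts and ionocytes gave 5 of 12 called higher and none lower, where 10% and 7.53% of all genes were. The median log2 difference was 1.17, although the summed level of the list was 224 and 1113 scaled CPM in tumours 70 and 995 and 728 to 2154 in the others. The members called higher were scarce ones. Ascl3, a factor of salivary duct and ionocyte precursors, stood at 7.03 and 1.53 against 0 to 0.218. Slc9a3, also called higher, stood at 1.225 and 0.281 against 0 to 0.201. Both passed the filter on low counts only through the salivary tumours, so the count of 5 rests in part on that filter. Scnn1a and Scnn1b, subunits of the epithelial sodium channel, stood at 12.4 and 19.1 and at 14.5 and 27.4 scaled CPM, against at most 5.71 and 9.87 in the other tumours. The abundant members Krt19, Kit, Foxi1 and Atp6v1b1 were lowest or near lowest in tumour 70 and overlapped between the groups. Without tumour 995 the median was 0.18 and the log2 ratio of summed levels was -2.73, a ratio that was -1.06 with all tumours. Without tumour 95 the median was 2.15. Against the glands 2 of 12 rose in the salivary tumours (background 1.33%) and 7 of 12 in the other tumours (background 8.69%). The count of 2 was 0 without gland 1, gland 2 or gland 3. The count of 7 was 2 without gland 1, gland 3 or gland 4, and 3 without gland 2 or tumour 95. At an unadjusted edgeR p under 0.05, 10 of 12 rose in the salivary tumours and 7 in the others. DESeq2 called 4 higher in the salivary tumours and 7 in the others. The median log2 difference of the list from the glands was 2.51 in both tumour groups.

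Of 32 genes of the endoplasmic reticulum and the secretory route, 6 were called higher and none lower, where 10% and 7.53% of all genes were. The median log2 difference was 0.07. Derl3, which exports misfolded proteins, stood at 120 and 18.2 scaled CPM against 0.786 to 9.81, and Herpud1, of the same degradation route, at 238 and 75.0 against 20.8 to 28.9. Dnajc3, Edem1, Atf4 and Kdelr3 were the others. The abundant chaperones did not follow: Hspa5 stood at 353 and 620 scaled CPM against 262 to 814, and Xbp1 at 289 and 452 against 112 to 348. Without tumour 70 the median log2 difference was 0.18, and without tumour 995 it was 0.015. Against the glands 1 of 32 rose in the salivary tumours (background 1.33%), and 4 rose and 1 fell in the other tumours (background 8.69% and 11.4%). At an unadjusted edgeR p under 0.05, 13 rose and 1 fell in the salivary tumours, and 10 rose and 3 fell in the others. DESeq2 called 6 higher in the salivary tumours, and 7 higher and 2 lower in the others. Median log2 differences from the glands were 0.79 and 0.67.

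Most pancreatic enzymes, which acinar cells of another gland make, were near 0. Of 15 listed genes 3 could be tested, and 9 others had at most 31 counts in any library. Of those 3, Reg1 (a secreted regenerating-family protein) was called higher, where 10% of all genes were. It stood at 1.35 and 3.34 scaled CPM in tumours 70 and 995 against at most 0.191 in the other tumours. Reg1 passed the filter on low counts only through the salivary tumours. The summed level of those 3 was 120 and 99.9 scaled CPM in tumours 70 and 995, from Rnase1 in tumour 70 (119) and Cel in tumour 995 (74.9). The thyroid gene Tg (thyroglobulin) had at most 21 counts in any library. Of 4 thyroid genes tested, with a median log2 difference of 2.01, Tshr was called higher, again where 10% of all genes were. Tshr (the thyrotropin receptor, also found in fat) stood at 2.13 and 2.91 scaled CPM against 0.0837 to 0.222. The glands held 13.7 to 46.2 of it, far above every tumour.

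Fat markers were higher in both salivary tumours without exception. All 13 adipocyte genes were called higher, where 10% of all genes were, with a median log2 difference of 4.56. Their summed level was 1083 and 1829 scaled CPM in tumours 70 and 995 against 44.8 to 220 in the other tumours. The glands, which hold much fat, were at 9063 to 38972, so both salivary tumours remained below every gland. Adipoq (adiponectin) stood at 29.4 and 84.9 scaled CPM in tumours 70 and 995, at 0.301, 0.277, 0.271 and 2.36 in tumours 95, 569, 655 and 914, and at 2708, 1580, 1633 and 242 in glands 1 to 4. Against the glands all 13 genes fell in the other tumours (background 11.4% lower), and 3 of 13 fell in the salivary tumours (background 0.280% lower), while 13 of 13 had an unadjusted p under 0.05 there. The count of 3 became 0 without gland 1, gland 2, gland 3, tumour 70 or tumour 995, 1 without tumour 95 or 655, 6 without tumour 914 and 7 without gland 4. Both comparisons share the glands.

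Brown fat genes gave 6 of 7 called higher, where 10% of all genes were. Ucp1, the uncoupling protein of brown fat, stood at 64.2 and 32.8 scaled CPM in tumours 70 and 995, at 0.117 in tumour 95 and at 0 in tumours 569, 655 and 914. In the glands it ranged from 4.62 to 243. Ucp1 was higher in tumour 70 than in tumour 995, as were 5 of the 7 genes in this list, whereas 12 of the 13 adipocyte genes were higher in tumour 995. Pck1 and Fabp3, which handle glyceroneogenesis and fatty acids, stood at 9.16 and 37.4 and at 9.28 and 117 scaled CPM in tumours 70 and 995, against at most 0.191 and 1.04 in the other tumours.

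Several lists of other cell types also had members called higher, where 10% of all genes were. Of 10 fibroblast genes 4 were called higher, among them Lum (lumican, 102 and 350 scaled CPM against 2.38 to 14.4) and Dpt (dermatopontin, 145 and 198 against 0.387 to 21.6). The summed level was 1506 in tumour 70 and 7929 in tumour 995 against 308 to 2593, so tumour 70 lay inside the range of the others. Postn (periostin) was below every other tumour in tumour 70 and above them in tumour 995 (47.5 and 570 against 62.2 to 335). Col1a1 (156 and 1348 against 15.5 to 407) overlapped. The median log2 difference of the list was 2.31, and it was 2.98 without tumour 70 and 0.17 without tumour 995. All 5 tested red blood cell genes were called higher (summed 632 and 2532 scaled CPM against 16.6 to 446), 3 of 5 without tumour 995. The macrophage receptor Mrc1 (50.4 and 183 against 3.73 to 17.5) was the only one of 10 macrophage genes called higher, a count at the share of all genes. Endothelial genes gave 2 of 9, little above that share, with Pecam1 at 384 and 73.6 against 32.3 to 58.7.

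Transcripts of immunoglobulin A were higher in both salivary tumours. Igha stood at 97.2 and 196 scaled CPM in tumours 70 and 995 against 12.3, 0.332, 0.136 and 30.1 in tumours 95, 569, 655 and 914. The joining chain Jchain, which links it for secretion, stood at 83.8 and 131 against 17.1, 0.831, 0.639 and 64.1. Pigr, the receptor that carries it through secretory epithelium, stood at 413 and 162 scaled CPM against 1.10 to 24.8 and is on none of the lists. Against the glands (0.555 to 1.08 scaled CPM) Igha was higher in the salivary tumours by 7.46 ± 1.59 (SE) on the log2 scale with an adjusted p of 0.046. That call held in 3 of 10 fits that left out 1 library, with an adjusted p of up to 0.14, and was lost without any 1 of the 4 glands or without tumour 70, 95 or 995. The plasma cell list gave 4 of 9 called higher, where 10% of all genes were, and Mzb1 and Pou2af1 overlapped. Its summed level overlapped too, at 369 and 573 scaled CPM in tumours 70 and 995 and 5.32 to 422 in the other tumours. The glands held 95.7 to 574. Without tumour 914 the list gave 7 called higher and a median log2 difference of 3.83, against 0.84 with all tumours. T and NK cell genes gave 2 of 12 called lower (Lck and Cd8b1, neither in every setting) and B cell genes 0 of 8, where 7.53% of all genes were. Both lists were high in tumour 914 and in glands 2 and 3.

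The part of these other cell types in the remaining differences was not tested. Skeletal muscle genes, another tissue next to the gland, had a summed level of 286 and 1161 scaled CPM in tumours 70 and 995, 3.93 to 390 in the other tumours and up to 160621 in gland 4. Of these genes 3 of 14 were called higher, where 10% of all genes were.

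**Figure D4:**
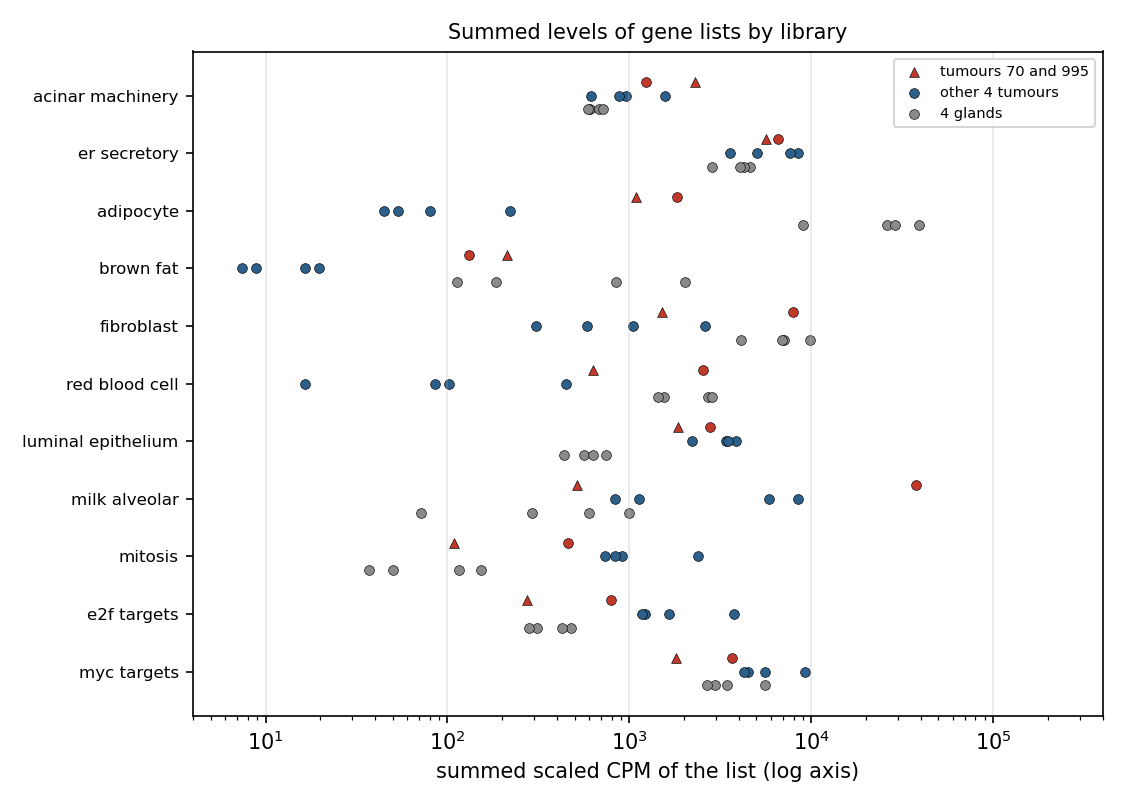
Summed scaled CPM of 11 gene lists in each library, on a log axis. Red marks tumours 70 (triangle) and 995 (circle), blue the other 4 tumours and grey the glands; for adipocyte genes red lies between blue and grey, for mitosis and E2F genes red lies below blue, and for luminal epithelium red and blue overlap.

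Luminal epithelial markers overlapped between the groups. None of 10 luminal genes was called higher or lower, with a median log2 difference of -0.49 and summed levels of 1851 and 2795 scaled CPM in tumours 70 and 995 against 2222 to 3847 in the others. Tumour 70 was below tumour 995 for 9 of 10. Without tumour 995 the median was -1.30, and without tumour 70 the median was 0.063. Krt8, the simple epithelial keratin, stood at 214 and 631 scaled CPM against 621, 585, 927 and 323, and Epcam, an epithelial adhesion protein, at 218 and 432 against 539, 1484, 821 and 423. Against the glands (437 to 744 summed) 6 of 10 luminal genes rose in the salivary tumours, where 1.33% of all genes rose, and 9 of 10 in the other tumours, where 8.69% rose. The first of these counts ranged from 0 to 7 when libraries were left out, with 0 without gland 2, 1 without gland 1, gland 3 or tumour 995 and 3 without tumour 70.

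Milk genes were high in tumour 995 alone. Their summed level was 516 scaled CPM in tumour 70, 37870 in tumour 995 and 839 to 8477 in the other tumours. Csn2 (beta-casein) stood at 21.3 scaled CPM in tumour 70 and 15242 in tumour 995, against 2.35 to 603 elsewhere among the tumours. Tumour 70 was thus below every other tumour in this sum and tumour 995 above. Of the tested genes, 1 of 11 (Xdh, an enzyme of milk fat secretion) was called higher, near the 10% of all genes. The median log2 difference of the list was 2.83, and it was 3.97 without tumour 70 and -2.77 without tumour 995.

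Of 9 basal and myoepithelial genes 1 was called higher and 1 lower, near the shares of all genes (10% and 7.53%), with a median log2 difference of -0.37. Cnn1 (calponin, a smooth muscle and myoepithelial protein) was the one called higher, at 4.00 and 17.4 scaled CPM in tumours 70 and 995 against 0.138 to 3.26 in the others and 7.72 to 17.7 in the glands. Krt17, a keratin of basal and stressed epithelium, stood at 9.61 and 24.4 scaled CPM in tumours 70 and 995 against 232, 63.6, 164 and 1349 in tumours 95, 569, 655 and 914 and was called lower. Krt5 and Krt14, the defining basal keratins, overlapped because tumour 569 held only 0.166 and 32.8 scaled CPM of them.

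Genes of mitosis were lower in both salivary tumours. Of 26 genes 25 were called lower, where 7.53% of all genes were, with a median log2 difference of -2.06. The summed level was 109 scaled CPM in tumour 70 and 458 in tumour 995, against 906, 2377, 829 and 734 in tumours 95, 569, 655 and 914 and 37.0 to 153 in the glands. Tumour 70 was thus at gland level and tumour 995 between glands and other tumours, and tumour 70 was the lower of the 2 for all 26 genes. Cdk1, the kinase that starts mitosis, stood at 3.61 and 29.6 scaled CPM against 47.2, 227, 87.3 and 75.4. Its partner cyclin Ccnb1 stood at 2.71 and 21.6 against 30.5, 186, 56.9 and 54.9. The member that was not called was the proliferation marker Mki67, at 6.83 and 39.2 scaled CPM against 112, 161, 36.3 and 38.3, since tumour 995 lay just above tumours 655 and 914.

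Genes of DNA replication that E2F factors control went the same way. Of 36 genes 28 were called lower and none higher, where 7.53% and 10% of all genes were. The median log2 difference was -1.82. Summed levels were 274 and 792 scaled CPM in tumours 70 and 995, 1179 to 3765 in the other tumours and 280 to 478 in the glands. Mcm7, of the replicative helicase, stood at 10.8 and 41.1 scaled CPM against 93.8, 294, 114 and 73.5, and Tk1 (thymidine kinase) at 6.83 and 16.9 against 45.4, 163, 77.9 and 42.0. Over all edgeR settings tried, 22 to 26 mitosis genes and 25 to 36 E2F genes were called lower.

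Against the glands, mitosis genes rose in the other tumours (26 of 26, background 8.69%, median log2 difference 3.71), and none of 26 passed the edgeR test in the salivary tumours (background 1.33%, median 1.81), where 15 had an unadjusted p under 0.05 and DESeq2 called 2. For E2F genes 29 of 36 rose in the other tumours (median 2.28) and 0 of 36 passed in the salivary tumours (median 0.55), with 5 at an unadjusted p under 0.05 and 0 by DESeq2. Leaving out gland 1 lowered the E2F count in the other tumours to 18. Both comparisons share the glands, the salivary group holds 2 libraries against 4, and the difference between the tumour groups was not tested because measured values chose them.

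**Figure D5:**
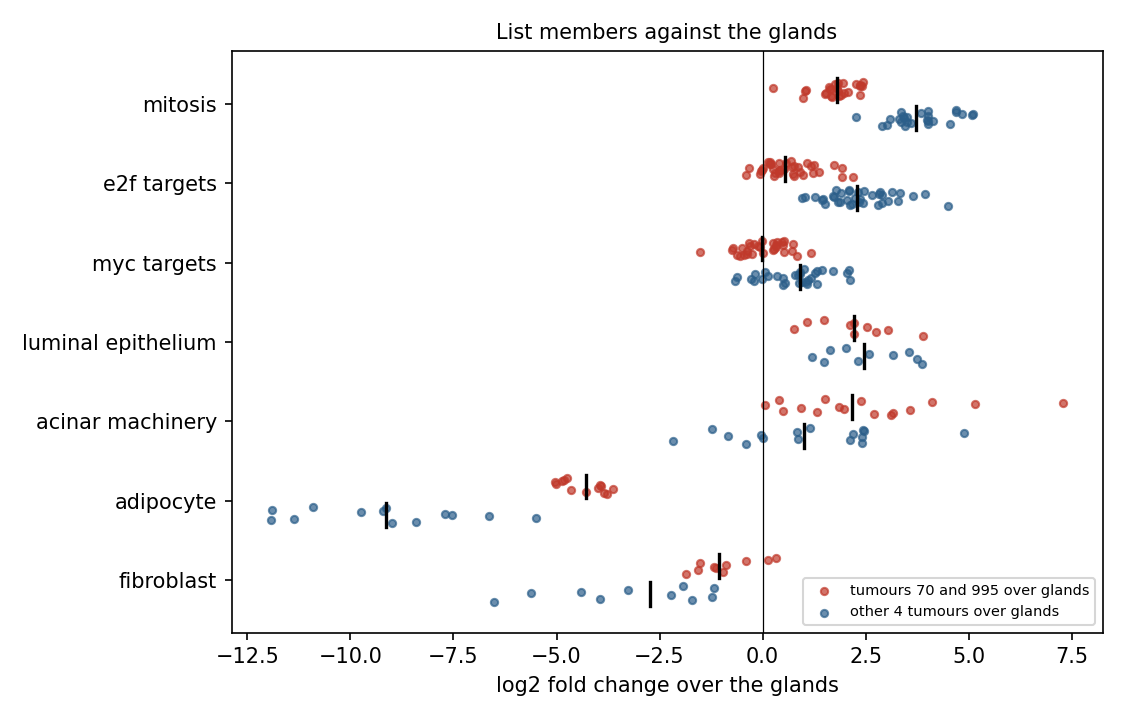
Each point is the fitted log2 fold change over the glands of 1 member of a list, in the salivary tumours (red) and in the other tumours (blue), with black bars at the medians. The medians for mitosis genes are 1.81 and 3.71 and for adipocyte genes -4.28 and -9.15; both series share the 4 glands.

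Ribosome-making and metabolic targets of Myc were less clearly separated. Of 31 genes 11 were called lower and 1 higher (Srm, spermidine synthase), where 7.53% and 10% of all genes were. The median log2 difference was -0.91. Summed levels were 1798 and 3686 scaled CPM against 4265 to 9199 in the other tumours and 2659 to 5544 in the glands. Cdk4, the kinase partner of cyclin D, stood at 95.4 and 136 scaled CPM against 252, 514, 329 and 328. Npm1 (nucleophosmin) stood at 314 and 664 against 1151, 2782, 989 and 940. The count called lower was 6 without tumour 569. The median log2 difference was -0.60 without tumour 70 and -1.19 without tumour 995.

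Ccnd1 (cyclin D1) stood at 113 and 194 scaled CPM in tumours 70 and 995, at 622, 808, 680 and 358 in tumours 95, 569, 655 and 914, and at 33.8 to 39.6 in the glands. The salivary tumours thus lay between the glands and the other tumours, 4.02-fold below the latter. Against the glands it rose by 2.02 ± 0.39 (SE) on the log2 scale in the salivary tumours (adjusted p = 0.036) and by 4.03 ± 0.37 in the other tumours (adjusted p = 0.00040). The first of these calls was lost without gland 1, 2 or 3, tumour 70 or tumour 995 (adjusted p up to 0.14), and the second held in all 10 fits that left out 1 library. The gland comparison given above for Bhlha15 in the salivary tumours also held in all 10.

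Fbxw7 itself did not mark the groups: it stood at 31.3 and 37.1 scaled CPM in tumours 70 and 995 and at 52.3, 16.9, 31.1 and 32.7 in the others, a log2 difference of 0.04. Gene-level counts do not say whether the excised part of the gene was transcribed, so these values do not check the labels. Of 15 genes whose proteins FBXW7 degrades, 1 was called lower (Aurka, a mitotic kinase that is also on the mitosis list) and none higher. That count is near the 7.53% of all genes called lower. Myc stood at 13.9 and 42.7 scaled CPM against 57.7, 65.7, 52.9 and 32.8, and overlapped. The transcript of a protein controlled by degradation need not follow the protein.

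Cdkn2a, which encodes the tumour suppressors p16 and p19Arf, was among the lowest genes. It stood at 1.35 and 1.62 scaled CPM in tumours 70 and 995 against 8.42, 5.76, 71.6 and 62.6 in tumours 95, 569, 655 and 914, a fitted fold of 24.8. Against the glands (0.427 to 0.871) it rose by 5.78 ± 0.88 (SE) on the log2 scale in the other tumours (adjusted p = 0.0025), and in the salivary tumours the difference was 1.14 ± 0.89 (adjusted p = 0.48). Trp53 stood at 11.8 and 31.2 scaled CPM against 55.8, 75.9, 36.7 and 71.1 and was called lower, a call that was lost without tumour 70. Of 22 p53 target genes 3 were called lower (Perp, Bax and Plk2), where 7.53% of all genes were. Cdkn1a, the best known of the p53 targets, overlapped at 18.1 and 31.0 against 7.03 to 150.

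Several of the other genes with the lowest folds were high in 1 of the other tumours. Ccl20, a chemokine, stood at 914 scaled CPM in tumour 914 and at 0.335, 1.02 and 2.50 in tumours 95, 569 and 655, against 0.0645 and 0.125 in tumours 70 and 995, so 1 tumour sets its fold. The cartilage genes Col2a1 (1.23 and 0.156 scaled CPM against 67.8, 283, 14.0 and 3.04), Snorc (0.451 and 0.531 against 4.59 to 424) and Cnmd (0.709 and 1.53 against 4.57 to 412) were highest in tumour 569. Lbhd2, a gene of little known function, was the most even of them, at 0.645 and 0.0312 scaled CPM against 49.0, 52.3, 67.4 and 189. Fgfr3 (a growth factor receptor, 1.29 and 1.12 against 11.3 to 77.1), Mia (a secreted protein of cartilage and melanoma, 3.80 and 2.41 against 32.2 to 171) and Spink5 (an epidermal protease inhibitor, 0.129 and 3.59 against 18.4 to 162) were likewise low in both. Ptn, the growth factor pleiotrophin, differed in that the glands (176 to 321) were well above both salivary tumours (2.90 and 10.7).

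Across all genes, 308 rose and 65 fell in the 2 salivary tumours against the 4 glands (1.33% and 0.280% of those tested), and 2015 rose and 2632 fell in the 4 other tumours (8.69% and 11.4%), by edgeR at an adjusted p under 0.05. Without a scaling factor the counts were 286 and 14 and 2138 and 1655, and with upper-quartile scaling they were 562 and 72 and 2710 and 2295. The number in the salivary tumours fell to 13 without gland 2, 43 without gland 3, 50 without gland 1, 63 without tumour 995 and 92 without tumour 70, and was 577 without gland 4. The median log2 difference from the glands was -0.10 in the salivary tumours and 0.14 in the others. A smaller count with 2 libraries does not show that fewer genes differ. Genes that passed the filter on low counts only through the salivary tumours, as Pax9 did, were not removed from the 308. Their number was not counted, and they raise both the 308 and the background of 1.33%.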

How the data were processed

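RNA of whole tissue was extracted with TRIzol and made into libraries with a NEBNext Ultra kit from polyA RNA, per the labels' protocols. The authors deposited whole-number counts for 38279 gene symbols in 10 libraries. Salmon 1.2.0, DESeq and mm9 appear in the submitters' processing notes without a stated role, and the step from transcripts to genes was not stated in the labels. Reads of near-identical genes may have been divided between them by a model. The 3 purified epithelium samples were not analysed here. Separate animals per library are not named in the labels; p-values therefore reflect only how these libraries vary, which may be partly technical. Whether the tumour groups were sequenced in different runs was not known here, and run and group cannot be told apart.

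Raw CPM is the count divided by the library's total. From the deposited counts 55 saliva gene symbols (a list of 41 and 5 name families) were removed, genes were kept by filterByExpr (minimum count 10) over the 3 groups, and 23187 genes were fitted in 1 edgeR 4.0.16 quasi-likelihood model (R 4.3.3) with TMM scaling and no covariate; the common biological coefficient of variation was 0.688. Each tumour group was tested against the glands, with Benjamini-Hochberg adjustment and a threshold of 0.05. Salivary and other tumours were compared with no test: a gene is called higher or lower when the groups do not overlap and the fitted fold is at least 2. The method was tested on simulated data.

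The members and the gene lists were chosen with earlier results of these data known. Named genes are 16 fixed ones, the 12 highest and 12 lowest folds with a group mean of at least 20 scaled CPM (unnamed models, mitochondrial genes and antigen receptor segments left out), and up to 3 called members of each list in each direction; a part of these is printed, with further genes of the lists, and Chia1's neighbours in abundance, Pigr and others were added after their values were seen. Lists of hormone-sensing, squamous, lymph node and Schwann cell genes gave 1 of 10, 0 of 11, 1 of 7 and 1 of 8 called higher, and none called lower. Over all genes 10% were called higher and 7.53% lower. Neutrophil genes gave 0 of 5 either way. Alternatives were RLE and upper-quartile scaling, no scaling factor, DESeq2 1.42.0, other filters, a 2-fold limit, keeping saliva genes, removing dominant transcripts, the 6 tumours alone and leaving out each library. Promoter sequences are RefSeq's on GRCm38.p6.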

Additional observations from a re-analysis of the deposited data

Results flagged for a closer look

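In 86 sets of values (28 summed lists, 14 single genes and the saliva share, each in the 6 tumours and in the 4 glands), 19 had 1 library far from the rest by Dixon's criterion at 95%. For normal values chance gives about 1 in 20, but these levels were not log-transformed, so that rate may not hold here. In the tumours the flagged sets included the share of saliva genes (56.5% in tumour 70), the summed scaled CPM of endothelial genes (438 in tumour 70) and of FBXW7 substrates (440 in tumour 70, the lowest), and the level of Bhlha15 (242 in tumour 70). Bpifa2, which chose the groups, took 34.9% of all counts in tumour 70, so the flag on the saliva share is not independent of the grouping.

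Tumour 995 stood apart in the summed scaled CPM of skeletal muscle (1161), milk (37870), fibroblast (7929), macrophage (3737), neutrophil (7958) and red blood cell genes (2532). The neutrophil value came from Ltf, which is also a milk gene, at 7943 scaled CPM, while S100a8 was at 6.50. Tumour 914 stood apart in basal (5077), T and NK cell (108), B cell (170) and lymph node genes (109). Tumour 569 stood apart in mitosis genes (2377).

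In the glands, gland 4 stood apart in skeletal muscle (160600), macrophage genes (433, the lowest) and the level of Fbxw7 (91.2), and gland 1 in the level of Sox10 (15.7).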

How the results depend on the processing

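Of 80 named genes called higher or lower, 74 to 80 kept their call and side in each setting, and the median of all genes moved between -0.25 and 0.10 on the log2 scale. With no filter on low counts 4235 genes were called higher, and against the glands the salivary tumours gave 634 genes with upper-quartile scaling and 2257 with DESeq2, against 373. Leaving out 1 library gave 2274 to 6728 genes called higher (6728 without tumour 995), 1397 to 5737 called lower (5737 without tumour 995, 2725 without tumour 70), 13 to 577 against the glands in the salivary tumours, and 2696 to 5137 in the other tumours (2696 without gland 1, 2926 without gland 2). Where 1 salivary tumour is left, it is assumed to vary like the other groups, and non-overlap is easier to meet. Median log2 differences changed sign without 1 tumour in 13 of 28 lists. Without tumour 995 they were -2.77 for milk, -2.11 for neutrophil and -0.024 for macrophage genes (highest 3.97, 2.20 and 1.62 without another library), and the log2 ratios of summed levels were -3.08, -2.10 and -0.51 (highest 3.22, 3.55 and 1.72). Without tumour 914 the medians were 0.83 for T and NK cell, 1.73 for B cell and 2.66 for lymph node genes (lowest -1.66, -2.89 and -3.55), and the summed ratios 0.58, 0.43 and 0.086 (lowest -1.53, -2.91 and -2.64). Without tumour 70 the medians were -0.38 for pancreatic and -3.6e-05 for thyroid genes (highest 4.56 and 3.25). The other 5 were luminal (-0.49 with all tumours, 0.063 without tumour 70), basal (-0.37, 0.59 without tumour 95), squamous (-0.91, 0.40 without tumour 655), Schwann cell (0.51, -0.33 without tumour 995) and hormone-sensing genes (0.34, -0.15 without tumour 995 and -0.040 without tumour 569). The cause of these changes was not tested. No paired analysis was possible because the tumours and glands share no sample numbers.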
